A study of Homo sapiens with 9 samples.

Results

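The comparison is between a docetaxel-resistant line of MDA-MB-231 and sensitive MDA-MB-231 cells, a human breast cancer line of basal, mesenchymal-like type long kept in culture. It rests on 6 of the 9 arrays of the series: 3 arrays of the resistant line, grown with 1 µM verapamil and 2 nM docetaxel, and 3 arrays of sensitive cells grown with 1 µM verapamil alone. Every group therefore carried verapamil, which blocks calcium channels and inhibits the drug pump P-glycoprotein, and the resistant cells alone were in docetaxel, so the drug and the selected line cannot be told apart. The other 3 arrays, of a line grown with 1 µM verapamil and 7 nM paclitaxel, entered the fit to estimate the spread and served as a second resistant line. Each resistant line is a single line, and each array was made from 5 µg of total RNA of a separate passage, so errors measure the spread among passages. The question is which functions and gene families differed in the docetaxel-resistant line, and at which level of signal.

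Docetaxel is a taxane: it binds beta-tubulin and keeps microtubules from shortening, which stops cells in mitosis. Cells selected in taxanes commonly survive by pumping the drug out, by changing their tubulin or by tolerating the arrest, and selection can also fix changes in gene copy number or chromatin that have no part in the tolerance itself. MDA-MB-231 cells carry active RAS and RAF and produce inflammatory cytokines.

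At an adjusted p below 0.05 (limma, Benjamini-Hochberg adjustment over all genes, here "called"), 2510 of 11963 genes (21.0%) differed, 1288 of them higher (10.8%) and 1222 lower (10.2%). Changes of at least 2-fold numbered 774 (6.47%), 514 higher and 260 lower, so that larger changes leaned to the higher side while all calls were near balance. The median difference over all genes was -0.05 on the log2 scale, with a median standard error of 0.164. In 4015 genes (33.6%) the deposited intensities of docetaxel-resistant and sensitive arrays did not overlap. Differences are given as log2 of quantile-normalized intensity plus 16, which understates changes that start from a low signal, and intensities are the deposited values with their SD over 3 arrays.

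The share of genes that changed depended on the level of signal. Tissue-limited genes, such as those of liver, retina or muscle, served as the level of genes that a breast line should not express. Over 53 measured genes their median intensity was 23.7 in sensitive and 21.4 in docetaxel-resistant cells, with 95th percentiles of 101 and 106. The list was not wholly silent: its member SERPINA1 was among the losses given below, and 1 other member was called higher. Below a mean of 32 over the 6 arrays, 4.60% of 4214 genes were called. From there to 4 times that limit the share was 24.0% of 3922 genes, and between 4 and 16 times the limit it reached 37.9% of 2610 genes. It was 34.5% of 1002 genes between 16 and 64 times the limit and 19.5% of 215 genes above that. Calls of at least 2-fold made up 2.79% of the genes in the uppermost band and 12.8% of those between 4 and 16 times the limit, against 6.47% of all genes.

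**Figure D1:**
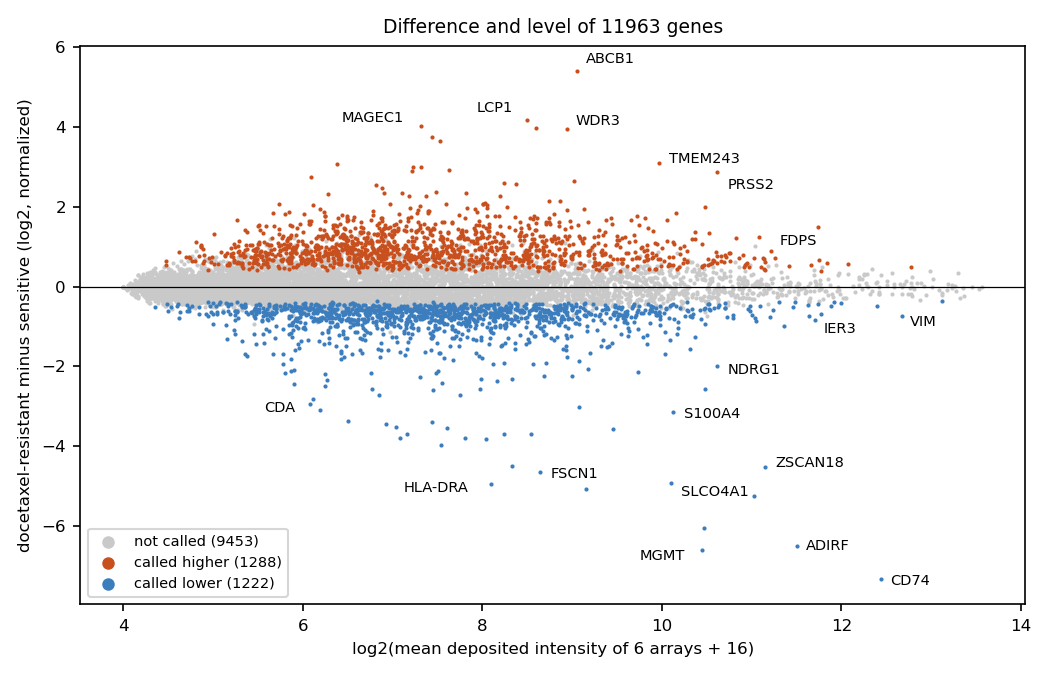
Each point is 1 gene, placed by its level (log2 of the mean deposited intensity of the 6 arrays plus 16) and its difference between docetaxel-resistant and sensitive cells (log2, normalized), and coloured by its call. Called genes are 1288 higher and 1222 lower, few of them lie at the lowest levels, and decreases such as CD74 (-7.33) and MGMT (-6.60) reach further than the largest increase, ABCB1 (5.41).

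Across arrays the median intensity ran from 33.66 (sensitive replicate 2, the lowest) to 43.89 (docetaxel-resistant replicate 3, the highest). These 2 arrays were the extremes of their groups, next to medians of 36.19 (sensitive replicate 1) and 41.19 (docetaxel-resistant replicate 2). In 65.2% of the genes called higher, sensitive replicate 2 had the lowest intensity of its group and docetaxel-resistant replicate 3 the highest of its own, against 25.3% of all genes and 14.6% of those called lower. Without both arrays 1338 genes were called, 715 higher and 623 lower, and without docetaxel-resistant replicate 3 alone 1643, of which 754 were lower. Counts without both arrays are given beside those of the lists below. Without normalization between arrays 1329 genes were higher and 731 lower, a split of 64.5% higher against 51.3%. The 3' minus 5' difference of the GAPDH control probe sets was 0.01 to 0.04 in sensitive and 0.01 to 0.13 in docetaxel-resistant arrays. The 12 markers of basal, mesenchymal-like breast lines, the type of MDA-MB-231 itself, summed to 28184 to 34468 in sensitive and 23815 to 26065 in docetaxel-resistant arrays, and none of them lay below 32 on all arrays of a group; 3 of them were called lower and 2 higher. The 16 epithelial markers summed to 7324 to 8548 against 7572 to 8770.2. Similar sums hid changes in both directions. Of these markers 5 were called higher and 2 lower (43.8% called, against 21.0% of all genes), with differences from -3.46 to 2.37. Sums for markers of other cell types differed between the groups. Fibroblast (400.0 to 497 against 631 to 775), melanocytic (213 to 261 against 390.5 to 482) and blood markers (1567 to 1769 against 2331 to 2514) summed to higher ranges in the resistant line, and endothelial ones to a lower range (146 to 214 against 105 to 114). Single members carried these sums: LCP1 was the 1 called of 10 blood markers (list median -0.03) and MITF the 1 called of 7 melanocytic markers (-0.17), and 2 of 11 fibroblast markers were called higher (-0.06). Of 10 blood markers 5 and of 7 endothelial markers 6 stayed below 32 on all docetaxel-resistant arrays. The part of such markers in the results was not tested, and fewer cells of a kind cannot be told apart from less RNA per cell.

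A gain was counted where a gene was called higher, lay under an intensity of 32 on all sensitive arrays and reached at least 4 times that on all docetaxel-resistant ones, and 10 genes (0.0836%) met this. ABCB1, the gene of P-glycoprotein, read 6.24, 5.43 and 10.4 on the sensitive and 862, 851 and 1363 on the docetaxel-resistant arrays (5.41 ± 0.19, adjusted p = 1.01e-08). LCP1, a plastin that bundles actin in blood cells, read 24.0, 15.5 and 20.2 against 618, 724 and 665 (4.18 ± 0.21, adjusted p = 1.46e-07). The groups lay far apart in each, as the rule for a gain requires. MAGEC1, a cancer-testis antigen otherwise limited to germ cells, read 0.0100, 1.80 and 2.51 against 241, 292 and 321. The adhesion receptor ADGRE1, known from macrophages, read 3.14, 13.3 and 4.52 against 305, 344 and 278. CCL2, which attracts monocytes, read 3.76, 14.2 and 9.02 against 432, 332 and 218. By the same rule all 3 went from under 32 to above the 95th percentile of the tissue-limited genes.

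The remaining gains were smaller. IGSF3, a membrane protein of the immunoglobulin family, had a mean of 17.2 ± 2.70 (SD, n = 3) in sensitive and 269 ± 6.44 in docetaxel-resistant cells (3.0 ± 0.14, SE), and the matrix protein SPARC 15.6 ± 5.10 and 251 ± 31.6 (2.99 ± 0.14). POLM, a polymerase of DNA end joining, rose from 15.9 ± 13.1 to 178 ± 41.4 (2.54 ± 0.28). HMGCS1, which makes the precursor of mevalonate, rose from 18.6 ± 10.4 to 186 ± 54.2 (2.46 ± 0.30). CYLD, a deubiquitinase that restrains NF-kB, read 25.5, 10.5 and 26.8 on the sensitive and 152, 163 and 244 on the docetaxel-resistant arrays (2.34 ± 0.22). Of 7 probe sets of CYLD 4 were called higher and the lowest stood at -0.03, and on plain _at probe sets alone, which leaves out those Affymetrix marks with _x or _s as shared by related transcripts, its value was 0.14 (adjusted p = 0.608). With a pseudocount of 1 CYLD stood at 0.17 (adjusted p = 0.611).

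Losses, the mirror image, numbered 16 (0.134%); among genes at or above the median level there were 10 gains and 9 losses. MGMT, which removes alkyl groups from guanine, read 2542, 2961 and 2756 on the sensitive and 13.7, 10.6 and 13.5 on the docetaxel-resistant arrays (fell by 6.60 ± 0.14, adjusted p = 3.15e-10). The cancer-testis antigen SPANXB1 read 3709.8, 1873 and 2756 against 25.2, 23 and 24.6 (fell by 6.07 ± 0.17), with the caveat that its near-identical relatives share its probes. RGCC, a cell cycle regulator that responds to complement, read 1098, 863 and 1301 against 17.8, 16.9 and 16.3 (fell by 5.09 ± 0.15). In each of them the docetaxel-resistant arrays lay at the level of tissue-limited genes, as the rule for a loss requires. FSCN1, fascin, which bundles actin in filopodia, read 843, 608 and 803 against 10.1, 21.4 and 16.6 (fell by 4.65 ± 0.16). BST2, the interferon-induced tether of virus particles, read 655, 592 and 547 against 18.3, 11.7 and 6.50 (fell by 4.51 ± 0.20). In both genes the groups were again far apart by the rule that chose them.

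Of the other lost genes, MFAP2, a protein of elastic microfibrils, fell from 332 ± 51.1 to 7.43 ± 5.48, and TIMP3, an inhibitor of metalloproteases bound to the matrix, fell from 475 ± 98.5 to 19.9 ± 2.44, with all 4 of its probe sets lower. SERPINA1, which inhibits serine proteases, fell from 343 ± 51.8 to 15.8 ± 3.47 in 2 of its 3 probe sets, and on probe sets of the plain _at class alone it stood at 0.18 (adjusted p = 0.510). CTSF, a lysosomal cysteine protease, fell from 224 ± 22 to 5.91 ± 3.81. FCGRT, the receptor that recycles IgG and albumin, fell from 236 ± 18.3 to 3.14 ± 5.42, and 2 of its docetaxel-resistant arrays read 0.0100. CLDN4, a tight junction claudin, read 201, 211 and 210.1 against 2.05, 8.17 and 5.36 (fell by 3.46 ± 0.17, adjusted p = 1.07e-07). Further losses were the cytokine IL6, the interferon-induced IFI27, the class II chains HLA-DRA and HLA-DRB6 (the latter a pseudogene whose probes other DRB genes may share), and CALB2, the calcium-binding calretinin, which fell by 2.16 ± 0.15 from 159 ± 5.63 to 25.8 ± 2.49.

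**Figure D2:**
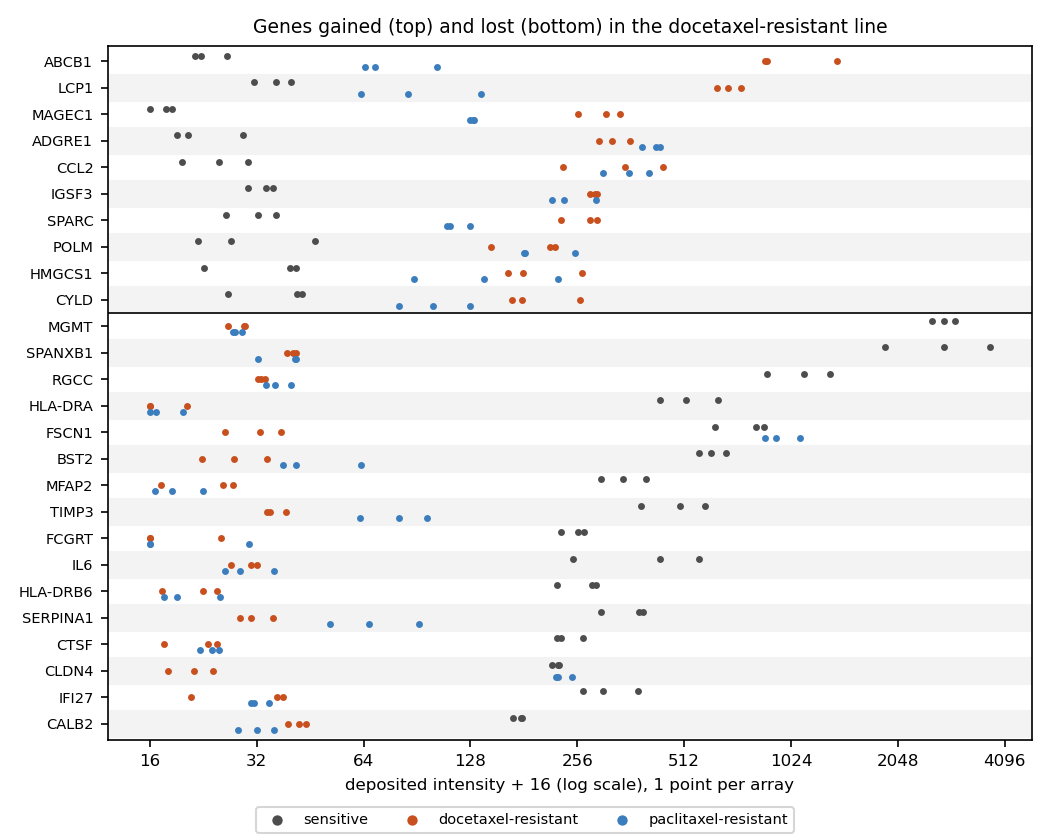
Deposited intensity plus 16 on a log scale for the 10 gained genes (above the line) and the 16 lost genes (below it), with 1 point per array for sensitive, docetaxel-resistant and paclitaxel-resistant cells. Sensitive and docetaxel-resistant points are separate in every row by the way the genes were chosen, and the paclitaxel-resistant points of FSCN1 and CLDN4 lie beside the sensitive ones.

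Among strong signals, 63 genes (0.527%) changed at least 2-fold with a mean of at least 1000 in the higher group, 35 higher and 28 lower. On the higher side TMEM243, a membrane protein encoded beside ABCB1, read 219, 100.4 and 255 on the sensitive and 1541, 1645 and 2139 on the docetaxel-resistant arrays (3.11 ± 0.24, adjusted p = 7.62e-06). PRSS2, a trypsinogen with near-identical copies, read 301, 371 and 331 against 3009, 3642 and 1673 (2.87 ± 0.26). The cancer-testis antigen MAGEA6 read 599.9, 454 and 578 against 2065, 2380.2 and 2422 (2.00 ± 0.12). No array of the sensitive group reached the resistant range in any of them. NT5E, the surface enzyme CD73 that makes adenosine, rose from 389.7 ± 67.3 to 1375 ± 184 (1.71 ± 0.14), and TMEM97, a sterol-regulated membrane protein also known as the sigma-2 receptor, rose from 487 ± 153 to 1616 ± 202 in all 4 of its probe sets. RBBP7, a histone-binding subunit of chromatin complexes, rose from 476 ± 160.5 to 1773 ± 348, and SMS, which makes spermine, from 412 ± 106 to 1278 ± 203. Many calls rest on part of a gene's probe sets. Of 1054 called genes with several probe sets, 375 had all of them called in the gene's direction, and 4 had at least 1 called the opposite way. Here EGFR, the epidermal growth factor receptor, rose in 3 of 6 (317 ± 37.9 to 1045 ± 238) and stood at -0.04 on probe sets of the plain _at class alone. TPM1, a tropomyosin of actin cables, rose in 3 of 4 (means 299 to 1053) and stood at -0.05 on plain _at probe sets. CLTC, the clathrin heavy chain, rose in 1 of 2 (352 ± 112 to 1228 ± 419).

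On the lower side the largest signal was that of CD74, the invariant chain of class II molecules, which read 11127, 11993 and 10124 on the sensitive and 60.4, 56.0 and 42.0 on the docetaxel-resistant arrays (fell by 7.33 ± 0.22, adjusted p = 2.87e-09). ADIRF, a regulator of fat cell differentiation, read 6798, 5087 and 5341 against 55.8, 43.3 and 46.7 (fell by 6.50 ± 0.16). SLCO4A1, a carrier of organic anions and thyroid hormone, read 2247, 2019 and 2024 against 29.5, 87.2 and 72.8 (fell by 4.93 ± 0.25). In none of these genes did an array of 1 group come near the range of the other. The zinc finger gene ZSCAN18 fell from 4338 ± 1918 to 165 ± 10.1, and G0S2, an inhibitor of fat breakdown, fell from 2415 ± 155 to 404 ± 16.2. S100A4, a calcium-binding protein linked to motility, fell from 1982 ± 466 to 224 ± 47.0, and PLAT, the tissue plasminogen activator, from 1363 ± 302 to 312 ± 32.6.

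To describe functions, 52 lists of 2463 genes (2207 measured) and 83 families of genes with a shared symbol stem and at least 8 measured members were counted. The lists and families with the largest share of higher or lower members, and those with the fewest called, are given here beside the shares over all genes, 10.8% higher and 10.2% lower. A count above those shares describes the list and is no test of it. Members named beyond the 4 of smallest adjusted p in each direction were chosen after their values were seen.

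**Figure D3:**
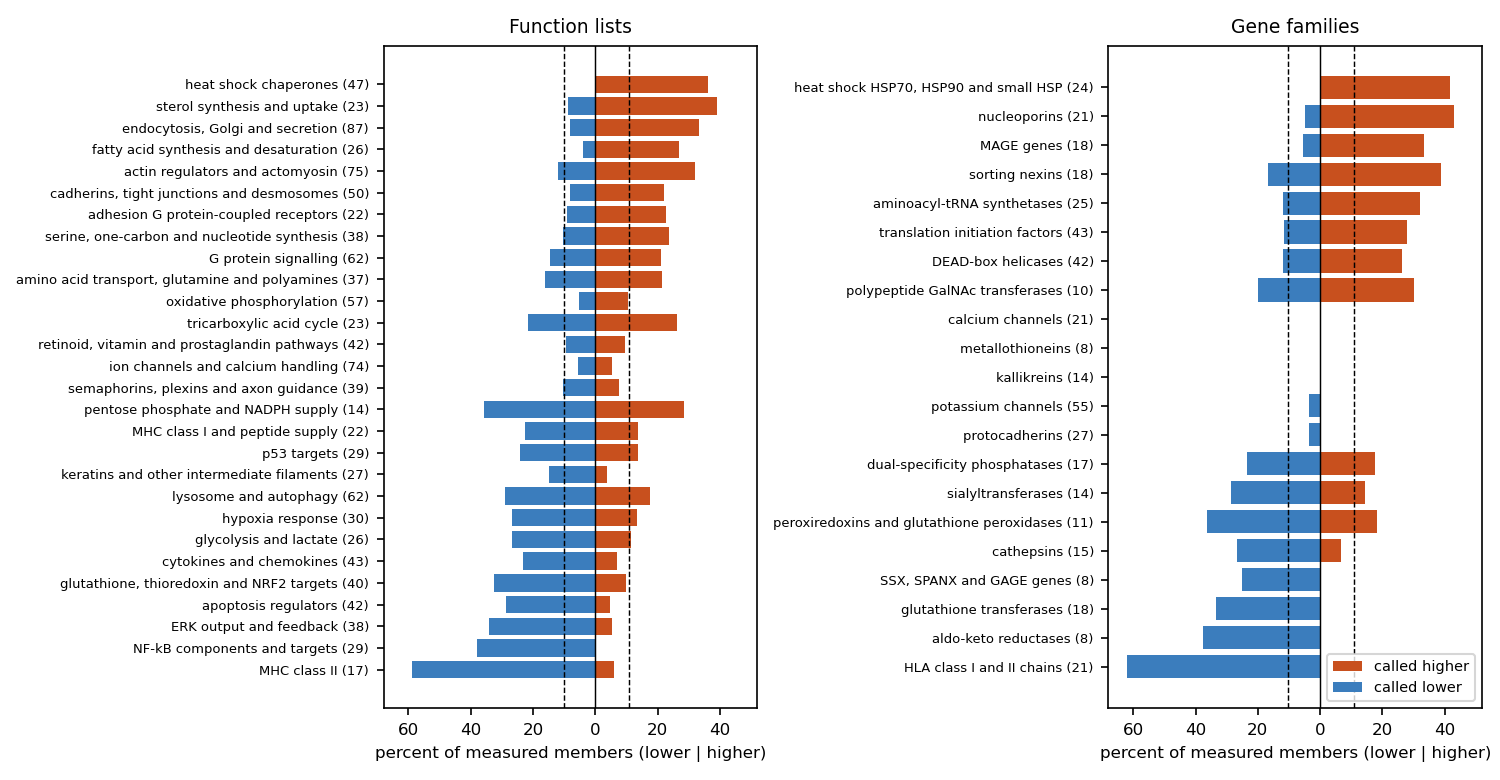
Bars give the percentage of measured members (number in brackets) called higher (right) or lower (left) in docetaxel-resistant cells, for function lists and for gene families, ordered by the balance of both. Dashed lines mark the shares over all genes, 10.8% and 10.2%; nucleoporins (42.9%) and HSP70, HSP90 and small HSP genes (41.7%) extend furthest to the right among families and sterol synthesis (39.1%) among functions, and HLA chains (61.9%) and MHC class II (58.8%) furthest to the left.

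Sterol synthesis had the largest share of higher members among the function lists: 9 of 23 (39.1%) rose and 2 fell, with a median difference of 0.33, and the counts were 9 and 0 without both arrays named above. The pathway builds cholesterol from acetyl-CoA and is switched on by SREBP transcription factors when membrane sterol is low. Higher members spanned it from the entry to the late steps. ACAT2, which joins acetyl-CoA units, read 437, 210.1 and 310.4 on the sensitive and 964, 882 and 876 on the docetaxel-resistant arrays (1.42 ± 0.20, adjusted p = 0.000503). MSMO1, a methylsterol oxidase, read 615, 149 and 416 against 1175, 1229 and 1406 (1.76 ± 0.32, adjusted p = 0.00277). HSD17B7, a sterol reductase, read 187, 135 and 187 against 374, 401 and 441 (1.06 ± 0.12, adjusted p = 0.000162). The groups did not overlap in any of them, and sensitive replicate 2 was the lowest array in each. Later called members were FDPS, which makes farnesyl diphosphate (1649.9 ± 261 to 3085 ± 273), MVD, SQLE and SC5D, with differences of 0.67 to 1.16. INSIG1, which retains the SREBP complex in the endoplasmic reticulum and is itself an SREBP target, rose from 444 ± 126 to 976 ± 94.5 in 1 of 3 probe sets.

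The regulators themselves moved otherwise. SREBF1, the SREBP of lipid synthesis, fell from 199 ± 51.9 to 130.1 ± 16.1 (fell by 0.71 ± 0.20, adjusted p = 0.0254), a call that ended without both arrays. SREBF2, the SREBP of sterol synthesis, stood at 0.31 and its escort SCAP at 0.00, and neither was called. PMVK, a kinase of the pathway, fell by 0.49, and that call ended without both arrays as well. IDI1 stood at 1.05 with an adjusted p of 0.0964, its sensitive array 1 (255) lying within the docetaxel-resistant range of 216 to 513.

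Promoters of 4 higher sterol genes are shown because 15 of 21 genes of the list with an entry, called or not (71.4%), hold the letters CCAAT on either strand in the 250 bases before the start, the binding sequence of NF-Y, against 35.6% of 9563 measured genes. Sequences are from the RefSeq promoter table (GRCh38.p14), 5' to 3' on the gene's strand, with CCAAT or its reverse ATTGG and TATAAA or its reverse TTTATA in capitals. A match describes the letters and no binding, and TCACNCCAC, a form of the sterol element, was found in 1 of the 21 (4.76%) and in 0.816% of all.
HMGCS1 (chr5:43313413-43313662, minus strand): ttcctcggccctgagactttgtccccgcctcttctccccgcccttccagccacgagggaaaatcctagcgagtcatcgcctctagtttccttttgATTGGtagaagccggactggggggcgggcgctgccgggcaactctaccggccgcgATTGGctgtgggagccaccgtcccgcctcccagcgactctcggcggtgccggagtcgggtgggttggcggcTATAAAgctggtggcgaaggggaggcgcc
MSMO1 (chr4:165327419-165327668, plus strand): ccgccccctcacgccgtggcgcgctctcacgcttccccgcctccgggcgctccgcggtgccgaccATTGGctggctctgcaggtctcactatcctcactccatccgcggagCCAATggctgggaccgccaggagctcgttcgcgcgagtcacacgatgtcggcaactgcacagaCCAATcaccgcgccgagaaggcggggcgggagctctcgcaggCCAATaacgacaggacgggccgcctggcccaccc
INSIG1 (chr7:155297628-155297877, plus strand): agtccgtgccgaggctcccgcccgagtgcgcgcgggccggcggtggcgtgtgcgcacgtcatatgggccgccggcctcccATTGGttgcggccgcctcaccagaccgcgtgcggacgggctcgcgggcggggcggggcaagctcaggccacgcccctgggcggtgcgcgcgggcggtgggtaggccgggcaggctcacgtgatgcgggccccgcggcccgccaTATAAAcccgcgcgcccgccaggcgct
HSD17B7 (chr1:162790452-162790701, plus strand): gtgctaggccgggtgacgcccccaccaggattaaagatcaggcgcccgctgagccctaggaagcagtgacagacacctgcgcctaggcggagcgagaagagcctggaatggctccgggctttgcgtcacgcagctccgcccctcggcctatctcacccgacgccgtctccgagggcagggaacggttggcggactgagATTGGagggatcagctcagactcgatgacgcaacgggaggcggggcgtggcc

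Fatty acid synthesis and desaturation had 7 of 26 members higher and 1 lower (median 0.12), and 6 and 0 without both arrays. FASN, the fatty acid synthase, read 135, 194 and 299 on the sensitive and 566, 522 and 485 on the docetaxel-resistant arrays (1.19 ± 0.23, adjusted p = 0.00410), and the groups were separate. ACACA, acetyl-CoA carboxylase, rose by 1.19 ± 0.14. Each of these rose in 1 of its 2 probe sets, and the other stood at -0.12 for FASN and -0.41 for ACACA. HSD17B12, which elongates fatty acids, rose from 171 ± 89.2 to 569 ± 214. ACSL5, which activates fatty acids, was the lower member at -0.66 ± 0.20, with overlapping groups and no call without both arrays.

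Genes of endocytosis, Golgi and secretion numbered 29 higher and 7 lower of 87 (33.3% and 8.05%, median 0.26), and 14 and 3 without both arrays. In 22 of the 29 higher genes sensitive replicate 2 was lowest and docetaxel-resistant replicate 3 highest in its group. COPB2, a coat protein of Golgi vesicles, read 227, 75.4 and 167 on the sensitive and 445, 534 and 753 on the docetaxel-resistant arrays (1.77 ± 0.25, adjusted p = 0.000622). AP1M2, an epithelial clathrin adaptor subunit, read 264, 162 and 141 against 623, 647 and 569.7 (1.56 ± 0.19, adjusted p = 0.000229). RAB31, a GTPase of transport from the Golgi, read 265, 115 and 156 against 441, 448 and 516 (1.28 ± 0.19). Groups did not overlap in these 3 genes. The largest decrease was in RAB38, a GTPase of lysosome-related organelles, which read 143, 51.9 and 122 against 0.0100, 0.0100 and 2.55 (fell by 2.83 ± 0.22, adjusted p = 7.40e-06). The clathrin light chain CLTB (907 ± 87.1 to 581 ± 52.5) and the syntaxin STX1A (-0.74) also fell. Sorting nexins, which shape endosome tubules, had 7 of 18 higher and 3 lower, and 2 and 0 without both arrays, the largest rise being SNX7 (186 ± 77.8 to 549 ± 157).

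Heat shock chaperones, which fold and refold proteins, had 17 of 47 members higher (36.2%) and 0 lower (limma; 20 higher and 1 lower at an unadjusted p below 0.05), and 9 higher and 1 lower without both arrays. Leaving out only sensitive replicate 2 gave 11 higher, and leaving out only docetaxel-resistant replicate 3 gave 10. Sensitive replicate 2 was lowest and docetaxel-resistant replicate 3 highest in its group in 14 of the 17 higher chaperones. HSPA2, an HSP70 best known from testis, read 30.4, 30.3 and 50.1 on the sensitive and 154, 172 and 159.6 on the docetaxel-resistant arrays (1.60 ± 0.15, adjusted p = 3.79e-05). HSPA9, the HSP70 of mitochondria, rose in all 3 probe sets from 294 ± 105 to 758 ± 156 (1.27 ± 0.19). The co-chaperone DNAJA2 rose from 146 ± 50.1 to 414 ± 80.4. DNAJB4 read 12, 10.1 and 12.3 against 97.8, 158 and 506, a rise of 2.89 ± 0.44 with a wide spread among the resistant arrays. HSP90B1, the HSP90 of the endoplasmic reticulum, rose from 45.5 ± 11.6 to 162 ± 69.5 in 1 of 2 probe sets. Within the family of HSP70, HSP90 and small HSP genes 10 of 24 were higher and 0 lower (11 and 0 unadjusted), and 7 and 0 without both arrays. DNAJ co-chaperones, taken by symbol, were less one-sided, with 7 of 30 higher, 2 lower and a median of -0.13. Those 2 lower genes are not in the list of heat shock chaperones.

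Families of RNA and nuclear transport also had many higher members. Nucleoporins, which build the nuclear pore, had 9 of 21 higher and 1 lower, and 5 and 0 without both arrays. Their median was the largest of the families described (0.62) and ran from 0.22 to 0.92 across settings. In 8 of the 9 higher nucleoporins sensitive replicate 2 was lowest and docetaxel-resistant replicate 3 highest in its group. NUP210, a membrane protein of the pore, read 66.6, 62.2 and 96.8 on the sensitive and 286, 317 and 287 on the docetaxel-resistant arrays (1.62 ± 0.18, adjusted p = 0.000131), with 4 of 5 probe sets higher. NUP160 and NUP133, of the ring that scaffolds the pore, rose from 14.0 ± 7.52 to 87.9 ± 34.2 and from 50.5 ± 26.3 to 184 ± 67.8. The groups did not overlap in these 3 genes. Aminoacyl-tRNA synthetases, which load tRNAs, had 8 of 25 higher and 3 lower, and 5 and 1 without both arrays. Sensitive replicate 2 was lowest and docetaxel-resistant replicate 3 highest in its group in all 8 higher synthetases. WARS2, the mitochondrial tryptophan enzyme, read 66.5, 41.3 and 46.9 against 294, 356 and 451 (2.35 ± 0.17, adjusted p = 5.21e-06), while WARS1, its interferon-inducible cytosolic counterpart, fell from 514 ± 59.2 to 262 ± 22.6 (fell by 1.04 ± 0.13). IARS2, LARS1 and NARS1 rose by 1.41 to 1.73.

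Translation initiation factors had 12 of 43 higher and 5 lower, and 5 and 1 without both arrays. In 9 of the 12 higher factors sensitive replicate 2 was lowest and docetaxel-resistant replicate 3 highest in its group. EIF2S3, the subunit of the eIF2 complex that carries the initiator tRNA, rose from 47.2 ± 21.2 to 217 ± 65.8 (1.75 ± 0.23), and EIF2AK3, the stress kinase PERK that inhibits eIF2, rose from 10.9 ± 0.723 to 63.7 ± 17.7 (1.44 ± 0.17). EIF2B2, a subunit of its exchange factor, fell from 1343 ± 216 to 792 ± 65.7. DEAD-box helicases, which remodel RNA, had 11 of 42 higher and 5 lower, and 2 and 1 without both arrays. In 9 of these 11 sensitive replicate 2 was lowest and docetaxel-resistant replicate 3 highest. Leaving out only sensitive replicate 2 gave 4 higher, and leaving out only docetaxel-resistant replicate 3 gave 2 higher and 3 lower. DDX39A, an export helicase, read 985, 941 and 947 against 335, 358 and 347 (fell by 1.52 ± 0.13, adjusted p = 1.75e-05), with separate groups.

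Actin regulators had 24 of 75 members higher and 9 lower (median 0.17), 15 and 6 without docetaxel-resistant replicate 3, and 14 and 5 without both arrays. In 9 of the 24 higher members sensitive replicate 2 was lowest and docetaxel-resistant replicate 3 highest. The actin-bundling genes exchanged places, with LCP1 gained and FSCN1 lost, as given above. MYL12A, a regulatory light chain of non-muscle myosin, read 219.6, 174 and 186 on the sensitive and 583, 645 and 696 on the docetaxel-resistant arrays (1.56 ± 0.13, adjusted p = 1.53e-05). TAGLN, transgelin, a calponin relative of smooth muscle, read 36.3, 35.2 and 36.2 against 170.5, 188 and 144 (1.64 ± 0.16, adjusted p = 4.02e-05). Groups were separate in both. The lower side held MARCKSL1, which binds actin at the membrane (1533 ± 289 to 625 ± 107), ARPC1A, a subunit of the branching complex ARP (1831 ± 183 to 993 ± 92.6), and the severing protein GSN, gelsolin (488 ± 74.9 to 273 ± 56.6).

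Of 50 cadherins, tight junction and desmosome genes 11 rose and 4 fell, the same counts as without both arrays. The 4 rises of smallest adjusted p were in genes of desmosomes, which anchor keratin filaments between epithelial cells. DSG2, a desmosomal cadherin, read 39.0, 29.6 and 68.6 on the sensitive and 175, 175 and 346 on the docetaxel-resistant arrays (1.85 ± 0.27, adjusted p = 0.000690). DSP, desmoplakin, read 15.1, 19.2 and 31.7 against 95.1, 83.5 and 141 (1.55 ± 0.24). The plakophilins PKP3 and PKP2 rose from 61.7 ± 11.4 to 159.9 ± 11.6 and from 37.8 ± 11.2 to 108 ± 5.03. Sensitive arrays lay near the tissue-limited genes in PKP2 and DSP, so the rises began close to background. Of 15 claudins 1 was called higher and 2 lower, namely CLDN4, lost as given above, and CLDN7 (271 ± 46.7 to 96.6 ± 15.7, fell by 1.5 ± 0.19). Also lower was L1CAM, an adhesion molecule of neurons (194 ± 64.4 to 60.9 ± 3.85) in 1 of 2 probe sets. PPL, periplakin, which links desmosomes to filaments, fell from 84.0 ± 25.1 to 3.30 ± 2.83, and 4 of 27 intermediate filament and linker genes fell and 1 rose (2 and 0 without both arrays), with VIM, vimentin, at 8335 ± 1151 and 4682 ± 159.9 (fell by 0.74 ± 0.13).

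Adhesion G protein-coupled receptors, which sense matrix and neighbouring cells through long outer domains, had 5 of 22 members higher and 2 lower, and 5 and 1 without both arrays. Beside ADGRE1, ADGRF5, a receptor known from lung and vessels, read 157, 80.7 and 119.5 on the sensitive and 769.5, 842 and 1042 on the docetaxel-resistant arrays (2.66 ± 0.23, adjusted p = 1.82e-05), with both probe sets higher. ADGRG6, needed for myelin, read 9.49, 6.56 and 6.48 against 48.1, 85.9 and 163 (2.05 ± 0.28). ADGRL2, a latrophilin, read 13.8, 11.3 and 16.5 against 81.8, 84.5 and 148 (1.86 ± 0.21). The sensitive arrays of ADGRG6 and ADGRL2 lay at the level of tissue-limited genes. CELSR2 rose from 37 ± 14.3 to 111 ± 8.48. ADGRE5, the leukocyte antigen CD97, fell from 617 ± 48.2 to 408 ± 25.4, a call that ended without both arrays.

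MHC class II had the largest share of lower members of all function lists, with 10 of 17 (58.8%) lower, 1 higher and a median of -0.66, and 7 and 0 without both arrays. Class II molecules carry peptides from endosomes to the surface for helper T cells, and the transactivator CIITA and the RFX factors turn their genes on together. HLA-DRA, the invariable alpha chain, read 622, 504 and 422 on the sensitive and 4.31, 0.0100 and 0.05 on the docetaxel-resistant arrays (fell by 4.95 ± 0.17, adjusted p = 9.11e-09). HLA-DRB1, its beta chain, whose probes near-identical genes share, read 4631, 4441 and 3094 against 111, 74.2 and 97.9 (fell by 5.25 ± 0.21). HLA-DPA1 read 276, 283 and 260.4 against 65.2, 70.9 and 37.6 (fell by 2.11 ± 0.25) in 2 of 3 probe sets. None of these groups overlapped. HLA-DPB1 fell from 68.8 ± 4.40 to 8.99 ± 8.66, and HLA-DMA and HLA-DMB, which load the peptide, fell, HLA-DMA by 1.79 and HLA-DMB by 0.81. The DQ and DO chains HLA-DQA1 (6.74 and 7.56), HLA-DQB1 (42.9 and 32.9), HLA-DOA (26.4 and 21.6) and HLA-DOB (18.9 and 19.4) had mean intensities near those of tissue-limited genes in sensitive and docetaxel-resistant cells and were not called.

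The regulators of class II were measured at lower signals and did not move together. CIITA stood at 33.3 ± 3.38 and 50.1 ± 2.32 (0.28 ± 0.14, adjusted p = 0.187) in its brightest probe set, and of its 3 probe sets 1 was called lower at -0.71. RFX5 rose from 189 ± 60.1 to 313 ± 32.6 (0.59 ± 0.16, adjusted p = 0.0192), a call that ended without both arrays, and its partner RFXANK fell from 324 ± 55.9 to 217 ± 13.1 (fell by 0.66 ± 0.18, adjusted p = 0.0260). RFXAP was near background in both groups (5.88 and 5.83).

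Promoters of 4 lower class II genes are shown because CCAAT letters recur in the list, in 10 of 13 genes with an entry (76.9%) against 35.6% of all measured genes, and because its median ratio of observed to expected CpG was 0.239 against 0.775. The 10 include RFX5, which rose, and HLA-DQA1, HLA-DQB1, HLA-DOA and HLA-DOB, which were not called. The entries of the lower genes HLA-DPA1 (24 CpG pairs, ratio 0.81) and RFXANK (26, ratio 0.89) hold no CCAAT. That of HLA-DPA1 (chr6:33080749-33080998, minus strand) lies past the start of HLA-DPB1, whose own entry ends at 33075989 on the plus strand. Whether HLA-DPA1 was transcribed from that start was not tested, so these letters may not describe the promoter in use. CD74, HLA-DRB1, HLA-DPB1 and HLA-DMA hold 2, 1, 2 and 3 CpG pairs. Capitals mark the same letters as above, in the RefSeq promoter table (GRCh38.p14).
CD74 (chr5:150412911-150413160, minus strand): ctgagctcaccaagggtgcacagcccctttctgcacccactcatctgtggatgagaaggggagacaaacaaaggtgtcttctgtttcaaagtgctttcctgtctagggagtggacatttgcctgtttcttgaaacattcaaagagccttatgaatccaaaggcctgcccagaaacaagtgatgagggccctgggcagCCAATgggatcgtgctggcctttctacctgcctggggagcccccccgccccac
HLA-DRB1 (chr6:32589849-32590098, minus strand): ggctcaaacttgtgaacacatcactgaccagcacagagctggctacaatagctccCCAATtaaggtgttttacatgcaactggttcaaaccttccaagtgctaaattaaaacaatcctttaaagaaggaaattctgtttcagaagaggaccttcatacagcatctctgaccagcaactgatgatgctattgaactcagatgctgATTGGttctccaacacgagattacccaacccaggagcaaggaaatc
HLA-DPB1 (chr6:33075740-33075989, plus strand): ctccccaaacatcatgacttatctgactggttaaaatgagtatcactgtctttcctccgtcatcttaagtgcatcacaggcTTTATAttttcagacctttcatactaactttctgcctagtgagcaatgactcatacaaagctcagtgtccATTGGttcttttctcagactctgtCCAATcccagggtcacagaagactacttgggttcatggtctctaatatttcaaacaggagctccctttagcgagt
HLA-DMA (chr6:32953098-32953347, minus strand): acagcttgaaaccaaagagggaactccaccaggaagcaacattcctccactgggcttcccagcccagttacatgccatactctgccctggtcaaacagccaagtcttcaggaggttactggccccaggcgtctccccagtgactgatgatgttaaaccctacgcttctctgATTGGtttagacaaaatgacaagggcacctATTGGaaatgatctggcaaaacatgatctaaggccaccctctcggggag

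Class I moved less. Over class I and II chains together 13 of 21 HLA genes fell and 0 rose (limma; 13 and 1 at an unadjusted p below 0.05), and 8 and 0 without both arrays. The list of class I and peptide supply had 5 of 22 lower and 3 higher, and 0 and 3 without both arrays. HLA-B, a classical class I chain, read 4292, 4603 and 4223 on the sensitive and 2720.0, 2819 and 2215 on the docetaxel-resistant arrays (fell by 0.70 ± 0.16, adjusted p = 0.00892), and the groups were separate, but the call ended without both arrays. B2M, the shared light chain, stood at 0.20 (adjusted p = 0.364) and the peptide pump TAP1 at -0.32 (adjusted p = 0.208). The higher members were PDIA3 and CANX, chaperones that fold class I chains among many other proteins, at 772 ± 112 to 1626 ± 90.6 and 749.8 ± 144 to 1810.0 ± 339.7, and ULBP2, a ligand of the natural killer receptor NKG2D, at 52.9 ± 11.8 to 116 ± 11.6.

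The list of NF-kB subunits, inhibitors and intracellular or adhesion targets had 11 of 29 members lower (37.9%) and 0 higher, with a median of -0.46. At an unadjusted p below 0.05 (limma) 17 were lower and 0 higher, and without both arrays 8 and 0. Secreted signals are left out by this definition and are counted among cytokines below, where CCL2 rose and IL6 and CXCL1 fell. CYLD, gained as given above, is not in the list either. NF-kB factors are held in the cytoplasm by IkB proteins and, when freed, turn on inflammatory genes and their own inhibitors. ICAM1, the adhesion molecule that leukocytes bind, read 233, 325 and 331 on the sensitive and 42.5, 44.6 and 51.3 on the docetaxel-resistant arrays (fell by 2.43 ± 0.19, adjusted p = 7.70e-06). The inhibitor NFKBIE read 224, 205 and 228 against 90.5, 111 and 87.0 (fell by 1.22 ± 0.15, adjusted p = 0.000207). The inhibitor NFKBIA, itself a target, read 1069.9, 1358 and 1126 against 685, 723 and 551 (fell by 0.91 ± 0.19). Groups were separate in these 3 genes. TRAF1, a receptor adaptor, fell from 86.1 ± 9.0 to 37.6 ± 15.0, the kinase IKBKE from 289 ± 40.1 to 180.4 ± 11.1, and IER3, an early response gene, from 4368 ± 384 to 2301 ± 173. The factors themselves were not called, with NFKB1 at -0.06, RELA at -0.59, RELB at -0.55 and REL at -0.12. VCAM1 (20.6 and 17.8), SELE (11.9 and 16.3) and PTGS2 (14.5 and 15.0) were near background in both groups.

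Cytokines and chemokines had 10 of 43 lower and 3 higher, and 6 and 3 without both arrays. Of 31 CC and CXC chemokines 4 fell and 1 rose, and 20 lay under 32 on all 6 arrays. CXCL1, which attracts neutrophils, read 766, 1651 and 1420.2 on the sensitive and 95.6, 99.8 and 88.2 on the docetaxel-resistant arrays (fell by 3.58 ± 0.29, adjusted p = 1.13e-05). CXCL2 read 108, 221 and 220.0 against 16.9, 17.7 and 10.3 (fell by 2.73 ± 0.26), and CXCL8, a further member, read 345, 203 and 301 against 33.8, 38.9 and 34.8 (fell by 2.60 ± 0.35). In these 3 genes the resistant values were close to the level of tissue-limited genes for CXCL2 and CXCL8 and above it for CXCL1. IL6 read 233, 549 and 421 against 16.1, 14.8 and 11 (fell by 3.79 ± 0.29). Against them CCL2 was gained, IL18, activated by inflammasomes, rose from 32.5 ± 9.21 to 112 ± 29.1 (1.23 ± 0.16), and LIF, of the IL6 family, rose from 199 ± 19.8 to 364 ± 53.7 (0.68 ± 0.18). IL1A, CXCL10, TNF and CCL5 had means under 32 in both groups.

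Output and feedback genes of the ERK pathway had 13 of 38 lower and 2 higher (34.2% and 5.26%), and 10 and 1 without both arrays. ERK signalling induces its own brakes, the Sprouty proteins and dual-specificity phosphatases. SPRY2 read 463, 425 and 600.0 on the sensitive and 186, 192 and 192 on the docetaxel-resistant arrays (fell by 1.43 ± 0.15, adjusted p = 9.61e-05), and SPRY1 read 227, 208 and 354 against 103, 122 and 105 (fell by 1.28 ± 0.17). DUSP4, which removes phosphate from ERK in the nucleus, read 1276, 1242 and 1358 against 437, 568 and 493 (fell by 1.43 ± 0.13, adjusted p = 3.54e-05). The groups did not overlap. ELK1, a transcription factor that ERK phosphorylates, fell from 413 ± 68.0 to 153 ± 8.64 in 2 of 3 probe sets, and JUN fell in all 4 of its probe sets from 493 ± 74.8 to 259 ± 46.3. DUSP6, the cytoplasmic phosphatase of ERK, fell from 1039 ± 365 to 575 ± 106 (fell by 0.89 ± 0.18, adjusted p = 0.00454), with overlapping arrays. DUSP1, a phosphatase induced by stress, went up from 586 ± 112 to 1323 ± 185 (1.09 ± 0.19), so that the 17 measured dual-specificity phosphatases had 3 higher and 4 lower, and 3 and 2 without both arrays, without docetaxel-resistant replicate 3 or without normalization between arrays. The immediate early genes FOS (34.5 and 26.5), EGR1 (99.7 and 103) and FOSB (5.97 and 6.37), and MYC (1361 and 1724), were not called.

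Of 42 apoptosis regulators 12 fell and 2 rose (28.6% and 4.76%), and 6 and 2 without both arrays; without docetaxel-resistant replicate 3 alone 7 fell. Lower members lay on both routes to cell death. HTRA2, a mitochondrial protease released in apoptosis, read 398, 316 and 374 on the sensitive and 107, 176 and 143 on the docetaxel-resistant arrays (fell by 1.43 ± 0.15, adjusted p = 9.64e-05), in both of its probe sets. FADD, the adaptor of death receptors, read 909, 777 and 679 against 392, 525 and 454 (fell by 0.85 ± 0.14). The TRAIL receptor TNFRSF10B read 543, 522 and 626 against 333, 379.8 and 342 (fell by 0.76 ± 0.14), lower in all 3 probe sets. These groups were separate on every array. BAX and BAK1, which open the mitochondrial outer membrane, both fell, BAX fell by 0.69 and BAK1 fell by 0.63, and the protective BCL2L1 fell by 0.43. BCL2 (-0.24), XIAP (-0.02), CYCS (0.04) and BCL2L11 (-0.05) were not called. CASP8, the initiator caspase of death receptors, rose by 0.53 ± 0.12 in 1 of 2 probe sets, and CASP4 rose by 0.72 ± 0.15 but stood at -0.17 on probe sets of the plain _at class alone and lost its call without both arrays. Targets of p53, which is mutant in MDA-MB-231, had 7 of 29 lower and 4 higher, and 5 and 2 without both arrays, with GADD45A (271 ± 66.8 to 159 ± 12.7) and PLK3 (45.3 ± 11.9 to 20.5 ± 1.52) lower and PERP (152 ± 64.1 to 316 ± 24.4) higher. Among genes at or above the median level alone that balance was 5 lower and 6 higher.

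Several lists of redox and detoxification genes leaned lower, but not all. Steroid, aldehyde and xenobiotic metabolism was near balance, with 5 of 45 higher and 6 lower. Aldehyde dehydrogenases had 4 of 17 higher and 1 lower. In the list of glutathione, thioredoxin and NRF2 targets 13 of 40 fell and 4 rose, and 8 and 3 without both arrays. GSTP1, the main glutathione transferase of many carcinomas, had means of 911 ± 87.8 and 335 ± 36.1 in sensitive and docetaxel-resistant cells (fell by 1.5 ± 0.16, adjusted p = 9.02e-05). GPX3, the secreted glutathione peroxidase, read 873, 857 and 989 against 183, 264 and 220.2 (fell by 2.07 ± 0.19, adjusted p = 2.66e-05). GPX1, its cytosolic relative, read 2544, 2426 and 2984 against 1399, 1682 and 1469 (fell by 0.80 ± 0.14). The groups did not overlap in GSTP1, GPX3 and GPX1. By family, 6 of 18 glutathione transferases fell and 0 rose (limma; 7 and 1 unadjusted), and 3 of 8 aldo-keto reductases, which reduce carbonyls, fell and 0 rose (5 and 0 unadjusted). Without both arrays these counts were 3 and 0 in each family. AKR1C3, AKR1C2 and AKR1C1 fell by 1.58, 1.04 and 0.82, but they are close copies whose probes overlap, and AKR1C1 stood at 0.01 on probe sets of the plain _at class alone. The family of peroxiredoxins and glutathione peroxidases had 4 of 11 lower and 2 higher, and 3 and 2 without both arrays. The 2 higher were peroxiredoxins: PRDX4, of the endoplasmic reticulum, rose from 1074 ± 83.4 to 2537 ± 181 (1.21 ± 0.13, adjusted p = 7.55e-05) and PRDX6 from 2258 ± 83.2 to 3176 ± 181 (0.51 ± 0.12). NQO1, a standard NRF2 target, rose in all 3 probe sets from 677 ± 149 to 1119 ± 94.7.

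Carbon metabolism changed in a mixed way. In glycolysis 7 of 26 members fell and 3 rose with a median of -0.31, 4 and 2 without sensitive replicate 2, and 3 and 1 without both arrays. PFKFB3, which makes the activator of phosphofructokinase, read 487, 435 and 585 on the sensitive and 172, 212 and 216 on the docetaxel-resistant arrays (fell by 1.39 ± 0.14, adjusted p = 7.55e-05). PFKP, a phosphofructokinase, read 2499, 2365 and 2745 against 1515, 1661 and 1434 (fell by 0.72 ± 0.13). ALDOC, the brain-type aldolase, read 266, 359.9 and 292 against 853, 871 and 634 (1.22 ± 0.21, adjusted p = 0.00175). These groups were separate, while LDHB, which converts lactate to pyruvate, read 2759, 784 and 743 against 2265, 2567 and 3809.6 and overlapped through sensitive replicate 1. GAPDH stood at -0.02 and LDHA at 0.11, both not called. Genes of the hypoxia response had 8 of 30 lower and 4 higher, and 5 and 2 without both arrays, led by NDRG1 (2491 ± 37.1 to 624 ± 59.6, fell by 1.99 ± 0.15) and the mitophagy receptor BNIP3 (1552 ± 312 to 711 ± 175).

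The pentose phosphate pathway and other suppliers of NADPH had 9 of 14 members called (64.3%), 4 higher and 5 lower, and 3 and 2 without both arrays. The isocitrate dehydrogenases parted: IDH1, of the cytosol, read 244, 101 and 209.9 on the sensitive and 393, 521 and 582 on the docetaxel-resistant arrays (1.30 ± 0.20, adjusted p = 0.000844), and IDH2, of mitochondria, fell from 224 ± 23.1 to 139.8 ± 14.9 in 1 of 2 probe sets, a call that ended without both arrays. PGLS, the lactonase of the pathway, fell in both probe sets from 491 ± 144 to 203 ± 34.4 (fell by 1.32 ± 0.22). RPIA, which isomerizes ribose phosphate, rose from 82.1 ± 31.9 to 193 ± 46.4. In the tricarboxylic acid cycle 6 of 23 rose and 5 fell, and 3 and 0 without both arrays, with 2 lower without either array alone. All 6 higher genes of the cycle had sensitive replicate 2 lowest and docetaxel-resistant replicate 3 highest in its group. The same held for all 4 higher suppliers of NADPH. PDHA1, a subunit of pyruvate dehydrogenase, rose in both probe sets from 301 ± 97.5 to 759 ± 146 (1.23 ± 0.17), and PC, pyruvate carboxylase, fell from 165 ± 29.4 to 96.2 ± 17.9, which lost its call without both arrays. Oxidative phosphorylation had 6 of 57 higher (10.5%) and 3 lower (5.26%), and 2 and 1 without both arrays, 4 and 1 without sensitive replicate 2 and 3 and 1 without docetaxel-resistant replicate 3. With a common median in place of quantile normalization the balance was 2 and 7.

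Genes of nucleotide supply rose in part, and those of amino acids and polyamines moved both ways. Serine, one-carbon and nucleotide synthesis had 9 of 38 higher and 4 lower, and 5 and 1 without both arrays. In 7 of these 9 sensitive replicate 2 was lowest and docetaxel-resistant replicate 3 highest in its group. GMPS, which makes GMP, had its lowest docetaxel-resistant array at 491 and its highest sensitive one at 225 (1.41 ± 0.18, adjusted p = 0.000290), and the salvage enzyme APRT read 406, 334 and 361 against 712, 880.1 and 805 (1.00 ± 0.13, adjusted p = 0.000381). Arrays of these groups were separate. PSPH, the last enzyme of serine synthesis, fell from 479.5 ± 53.8 to 340.2 ± 48.3 in 1 of 2 probe sets. Among amino acid and polyamine genes 8 of 37 rose and 6 fell (median 0.01), and 5 and 1 without both arrays. Beside SMS the higher members were GOT2, the mitochondrial aspartate aminotransferase (819 ± 81 to 1503 ± 69.0), the glutamine carrier SLC38A2 (166 ± 27.9 to 485 ± 231) and OAZ2, which turns off ornithine decarboxylase (358 ± 56.1 to 629.9 ± 34.3). SLC3A2, the heavy chain of several amino acid exchangers, fell from 636 ± 109 to 324 ± 34.7 (fell by 1.04 ± 0.19). The carriers SLC43A1, SLC1A4 and SLC7A7 were also called lower.

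In lysosome and autophagy 18 of 62 members fell and 11 rose (29.0% and 17.7%), 11 and 7 without docetaxel-resistant replicate 3, and 9 and 7 without both arrays; without normalization between arrays the counts were 10 and 11. ATP6V0B, a subunit of the proton pump that acidifies lysosomes, read 1365, 1461 and 1416 on the sensitive and 619.7, 753 and 598 on the docetaxel-resistant arrays (fell by 1.15 ± 0.15, adjusted p = 0.000327). ULK1, the kinase that starts autophagy, read 57.0, 68.2 and 82.8 against 33.6, 28.6 and 23.9 (fell by 1.07 ± 0.15). MITF, a transcription factor of lysosomes and of pigment cells, read 53, 30.8 and 37.4 against 188, 213 and 330.5 (2.03 ± 0.20, adjusted p = 5.88e-05), and groups did not overlap in these 3 genes. MITF is also a melanocytic marker, and 3 of the 7 measured ones stayed below 32 on all docetaxel-resistant arrays. Of 15 cathepsins 4 fell and 1 rose, and 2 and 1 without both arrays: CTSD, an aspartic protease, fell from 552 ± 94.7 to 254 ± 41.2, and CTSH, a cysteine aminopeptidase, rose from 178 ± 15.0 to 407 ± 47.1. GABARAPL2, which coats autophagosomes, rose from 608 ± 79.4 to 1332 ± 84.2 (1.06 ± 0.14).

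Enzymes of glycosylation divided within families. Of 14 sialyltransferases, which cap glycans, 4 fell and 2 rose, and 2 and 1 without both arrays, a balance that was 2 and 3 without normalization between arrays. ST6GAL1 read 116, 111 and 135 on the sensitive and 53.3, 41.9 and 43.6 on the docetaxel-resistant arrays (fell by 1.28 ± 0.17, adjusted p = 0.000447) in 2 of 3 probe sets. ST6GALNAC5, known from brain gangliosides, read 7.09, 2.14 and 7.09 against 39.9, 44.1 and 49.2 (1.43 ± 0.14, adjusted p = 4.62e-05), a rise from background to just above it. Of 10 polypeptide GalNAc transferases, which start mucin-type chains, 3 rose and 2 fell, and 0 and 2 without both arrays, with 1 higher without sensitive replicate 2. GALNT6 fell from 117 ± 18.7 to 26.7 ± 0.352 (fell by 1.76 ± 0.12, adjusted p = 3.07e-06) and GALNT14 from 73.0 ± 28.2 to 21.2 ± 5.21.

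Of 18 measured MAGE genes, many of them cancer-testis genes of the X chromosome, 6 rose and 1 fell (median -0.04), as also without both arrays, and with a common median 4 fell. MAGEA1 read 1.45, 0.0100 and 0.0100 on the sensitive and 113, 146 and 144 on the docetaxel-resistant arrays (3.08 ± 0.18, adjusted p = 6.50e-07). MAGEA12 read 96.4, 76.7 and 75.7 against 346, 424 and 479 (1.96 ± 0.14, adjusted p = 3.56e-06). The MAGE genes resemble each other closely, so their probes may share signal, although MAGEH1, a more distant member that is expressed widely, fell from 45.7 ± 15.1 to 4.0 ± 4.17. Of 8 SSX, SPANX and GAGE genes 0 rose (limma; 1 at an unadjusted p below 0.05) and 2 fell (median 0.06), SPANXB1 from 2779.5 ± 919 to 24.3 ± 1.17 and GAGE1 within background (11.9 ± 0.764 to 4.83 ± 1.11). The call of GAGE1 ended without both arrays, which left 1 lower.

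G protein signalling had 13 of 62 members higher and 9 lower, and 9 and 6 without both arrays, the balance being 8 and 9 without sensitive replicate 2. PDE9A, which breaks down cyclic GMP, read 25.2, 23 and 24.3 on the sensitive and 116, 139.7 and 119.8 on the docetaxel-resistant arrays (1.66 ± 0.13, adjusted p = 7.45e-06). AKAP12, an anchor of protein kinase A, read 46.3, 74.1 and 82.7 against 236, 299 and 712 (2.08 ± 0.31, adjusted p = 0.000775), highest in docetaxel-resistant replicate 3. RGS10, which turns G proteins off, read 1127, 646 and 928 against 346, 379 and 374 (fell by 1.34 ± 0.15) and fell in all 3 probe sets. The groups were separate in each. GNA15, an alpha subunit of blood cells, fell from 335 ± 38.7 to 139.9 ± 23.1.

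Several of the lists with the fewest calls held many genes of low signal, at a level where 4.60% of all genes were called. Under 32 on all 6 arrays lay 29 of 74 ion channel and calcium genes, 32 of 55 potassium channels and 17 of 27 protocadherins. So did 11 of 21 calcium channels and 7 of 14 kallikreins. Others did not: 0 of 57 genes of oxidative phosphorylation and 1 of 8 metallothioneins lay there. Of the 74 ion channel and calcium genes 4 rose and 4 fell (10.8% in all, against 21.0% of all genes), and 5 and 3 without both arrays, with KCNN4, a calcium-activated potassium channel, lower (296 ± 58.8 to 159 ± 18.2) and the chloride transporter CLCN4 higher in all 4 probe sets (13.4 ± 6.39 to 80.1 ± 29.0). Of 55 potassium channels 2 fell and 0 rose (limma; 3 and 0 at an unadjusted p below 0.05), and of 27 protocadherins 1 fell and 0 rose (3 and 0 unadjusted). Without both arrays 1 and 0 of these fell. None of 21 calcium channels (0 higher and 2 lower unadjusted), 14 kallikreins and 8 metallothioneins (0 and 0 unadjusted in each) was called. Semaphorins, plexins and other guidance genes had 3 of 39 higher and 4 lower, and 2 and 3 without both arrays, among them the guidance receptor ROBO1 (15.2 ± 6.74 to 87.0 ± 36.3) and PLXNA2 (162 ± 23 to 68.0 ± 21.2, in 1 of 2 probe sets). Retinoid, vitamin and prostaglandin genes had 4 of 42 in each direction, and 2 higher and 1 lower without both arrays (2 and 2 without either alone), with LTA4H, which makes a leukotriene and rose from 434 ± 138 to 1075 ± 120.3 (1.24 ± 0.16).

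Among drug pumps other than P-glycoprotein, ABCC1 read 238, 233 and 289 on the sensitive and 211, 243 and 255 on the docetaxel-resistant arrays, and ABCG2 42.5, 32.4 and 28.4 against 25.8, 38.1 and 35.1. Their arrays overlapped, and neither was called (adjusted p = 0.337 and adjusted p = 0.534).

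A feature that the calls did not use is the CpG content of promoters. The ratio of observed to expected CpG in the 250 bases before the start had a median of 0.775 over 9563 measured genes with an entry, and 69.7% reached 0.6. It was 0.402 in the 8 gained genes with an entry (37.5% at 0.6 or more) and 0.294 in the 12 lost ones (33.3%). Other called genes had more CpG: 0.832 in 1103 higher (84.2%) and 0.811 in 1002 lower (79.8%), against 0.755 in 7438 not called (66.3%). These groups differ in level of signal, so the shares describe them and no test was made. Among the lost genes MGMT, RGCC, CTSF and TIMP3 are the 4 with a ratio of at least 0.6, and among the gained CYLD, HMGCS1 and POLM are the 3.

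Called genes were not spread evenly over chromosomes. On chromosome 18, 29.3% of 174 measured genes were higher and 1.15% lower, and on chromosome 15, 25.8% of 360 were higher and 5.83% lower. Chromosomes 21, 5 and 16 followed with 20.4%, 18.7% and 17.9% higher. Lower genes made up 18.6% of 451 genes on chromosome 10, 17.8% of 732 on chromosome 11 and 16% of 381 on chromosome 14. On chromosome 19, 12.7% of 810 genes were lower and 2.84% higher. Several genes described above lie on these chromosomes: MYL12A, RAB31, DSG2 and NARS1 on 18, PDIA3 and CTSH on 15, MGMT, ADIRF, PFKFB3 and AKR1C3 on 10, and FADD, GSTP1 and CTSD on 11. Copy number was not measured.

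**Figure D4:**
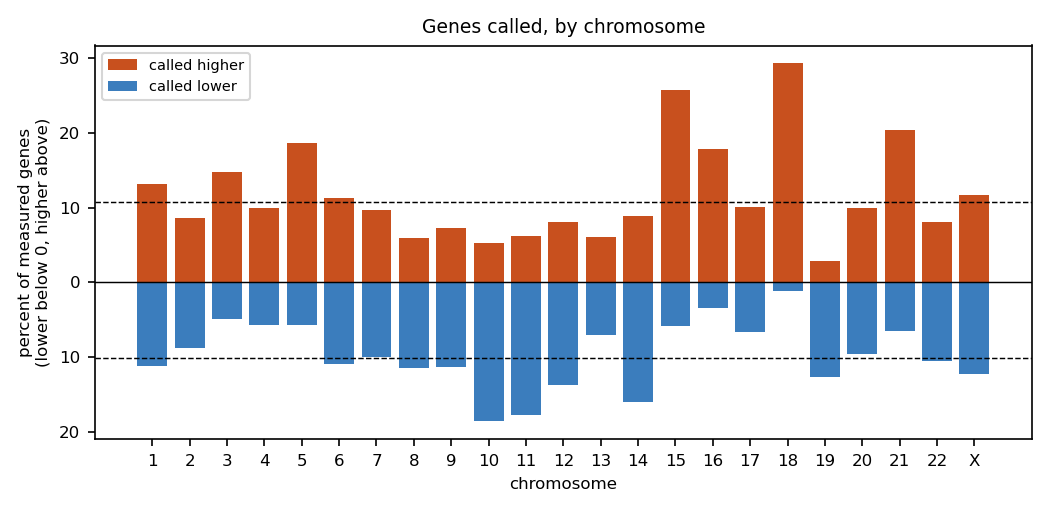
For each chromosome, bars above 0 give the percentage of its measured genes called higher in docetaxel-resistant cells and bars below 0 the percentage called lower; dashed lines are the shares over all genes (10.8% and 10.2%). Chromosomes 18, 15 and 21 stand out above, and 10, 11 and 14 below.

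Against the paclitaxel-resistant line, 235 genes (1.96%) were called in the difference docetaxel-resistant minus paclitaxel-resistant, against 1564 at an unadjusted p below 0.05. This difference shares the docetaxel-resistant arrays with the comparison to sensitive cells. Of the 2510 called genes, 106 (0.886% of all 11963 genes) also differed from the paclitaxel-resistant line in the same direction, 61 further up and 45 further down. That count was 41 without docetaxel-resistant replicate 2, 48 without docetaxel-resistant replicate 1 or paclitaxel-resistant replicate 3, 52 without paclitaxel-resistant replicate 2, 53 without docetaxel-resistant replicate 3 and 61 without both arrays of extreme median. A further 109 of the 235 were not called against sensitive cells, and 20 were called there with the opposite sign. All 10 gained genes were also called higher in the paclitaxel-resistant line, where 4 passed the upper limit of a gain on all arrays. Of the 16 lost genes 14 were called lower there, and 11 lay under 32 on all arrays.

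The largest excess over the paclitaxel-resistant line was in ABCB1, which read 87.4, 53.1 and 48.4 there against 862, 851 and 1363 in the docetaxel-resistant line (difference 3.69, adjusted p = 1.62e-06). LCP1 read 121, 46.9 and 69.3 against 618, 724 and 665 (2.89, adjusted p = 3.80e-05). PRSS2, with 356, 285 and 330.2, stood near the sensitive 301, 371 and 331 in the paclitaxel-resistant line (2.93, adjusted p = 0.000202), and so did TRBC1, the constant chain of the beta T-cell receptor, with 73.8, 79.7 and 106 against 445, 565 and 460.4 (2.23, adjusted p = 7.67e-05). The paclitaxel-resistant arrays thus lay between the other groups for ABCB1 and LCP1. Further genes with an excess were TMEM243, CROT and ABCB4, which lie near ABCB1, the deubiquitinase USP33, WDR3, a factor of ribosome assembly, AOX1, an aldehyde oxidase, and MAP3K7CL. AOX1 read 15.6, 21.3 and 18.9 in the paclitaxel-resistant line, below the sensitive 103, 31.5 and 60.8, and 124, 139 and 202 in the docetaxel-resistant one, and its call against sensitive cells ended without both arrays.

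The largest deficit was in FSCN1, which read 848, 1070.0 and 911 in the paclitaxel-resistant and 10.1, 21.4 and 16.6 in the docetaxel-resistant line (difference -4.95, adjusted p = 3.84e-08). CLDN4 read 207, 232 and 209.7 there against 2.05, 8.17 and 5.36 (-3.49, adjusted p = 6.80e-07). CPVL, a serine carboxypeptidase of macrophages, read 182, 113 and 152 on the sensitive, 134, 85.0 and 104 on the paclitaxel-resistant and 0.620, 0 and 0.890 on the docetaxel-resistant arrays (-2.91, adjusted p = 6.80e-07). The paclitaxel-resistant arrays of FSCN1 and CLDN4 reached the sensitive level, and those of CPVL lay within or just below the sensitive range. GUSB, the lysosomal glucuronidase often used as a reference gene, read 548, 540.5 and 564 in sensitive, 309, 340.4 and 302 in docetaxel-resistant and 945, 1083 and 828 in paclitaxel-resistant cells, so that the resistant lines lay on opposite sides of the sensitive one. CDA, cytidine deaminase, read 116, 92.0 and 102 in sensitive cells, 28.1, 36.0 and 27.3 in the paclitaxel-resistant line and 0.630, 0.580 and 0.0100 in the docetaxel-resistant line. S100A4 and TIMP3 fell in each line and further in the docetaxel-resistant one. DUSP6 fell in the docetaxel-resistant line (575 ± 106) and read 1343, 1184 and 1178 in the paclitaxel-resistant one.

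**Figure D5:**
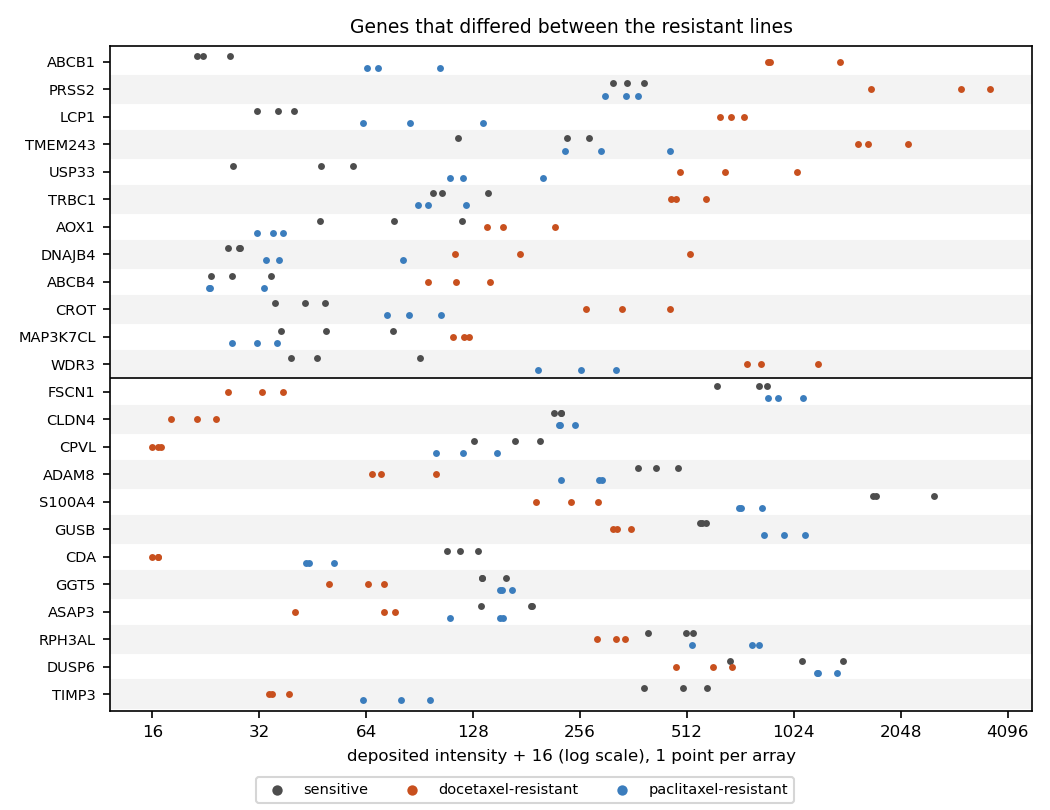
Deposited intensity plus 16 on a log scale, 1 point per array, for the 12 genes furthest above (upper block) and the 12 furthest below (lower block) the paclitaxel-resistant line among genes called in both differences. Docetaxel-resistant points of ABCB1 and LCP1 lie above both other groups, and those of FSCN1, CLDN4 and CPVL lie below both.

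The genes that set the docetaxel-resistant line apart from the paclitaxel-resistant one were concentrated on some chromosomes. Chromosome 7 holds 4.51% of measured genes and 15.1% of the 106, with 9 above and 7 below the paclitaxel-resistant line. ABCB1, ABCB4, CROT, TMEM243, PRSS2 and TRBC1 are among the former, and FSCN1, CLDN4, CPVL and GUSB among the latter. Chromosome 15 holds 3.01% of genes and 12.3% of the 106, all 13 above, and the X chromosome 3.87% and 10.4%.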

How the data were processed

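Total RNA of 9 cultures was measured on Affymetrix human GeneChip arrays. Per the submitters' processing notes, the authors made the deposited intensities with Affymetrix Expression Console 1.1.2 and PLIER; they are linear and not below 0, and the sources used here give no further settings. From the 22283 probe sets 68 controls were left out. The values of 22215 probe sets were taken as log2(intensity + 16) and quantile-normalized, since array medians differed by 0.27 on the log2 scale. Of 19065 probe sets with 1 gene symbol, the one with the highest mean stood for its gene, which gave 11963 genes (4310 with several probe sets); 1043 probe sets named several genes and 2107 none. limma 3.58.1 in R 4.3.3 fitted 3 group means over 9 arrays with empirical Bayes (6 residual and 5.4 prior degrees of freedom) and Benjamini-Hochberg adjustment over all genes; the call threshold was 0.05. The fit was tested on simulated data. Named genes are all gained and lost genes, those of largest change at high level or against the paclitaxel-resistant line, and, per described list, up to 4 called members in each direction by smallest adjusted p. The comparison, its members and the lists were chosen with earlier results of these data known. With 3 arrays a group, the number of arrays limits the precision, and p-values measure the spread between separate passages of single lines. Alternatives covered pseudocount, normalization, probe set choice, level filters, spread model and arrays left out.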

Additional observations from a re-analysis of the deposited data

Results flagged for a closer look

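The following genes differed between the resistant lines in a test of that difference (docetaxel-resistant minus paclitaxel-resistant, log2, limma with Benjamini-Hochberg adjustment), with 3 arrays in each group. Further up in the docetaxel-resistant line were ABCB1 by 3.69 (adjusted p = 1.62e-06), PRSS2 by 2.93 (0.000202), LCP1 by 2.89 (3.80e-05), TMEM243 by 2.45 (0.000342), USP33 by 2.27 (0.00327) and TRBC1 by 2.23 (7.67e-05). AOX1 stood at 2.19 (0.00119), DNAJB4 at 2.18 (0.0290), ABCB4 at 2.06 (0.000911), CROT at 1.93 (0.000219), MAP3K7CL at 1.83 (0.00119) and WDR3 at 1.77 (0.00920). Further down were FSCN1 at -4.95 (3.84e-08), CLDN4 at -3.49 (6.80e-07), CPVL at -2.91 (6.80e-07), ADAM8 at -1.89 (0.000259), S100A4 at -1.77 (0.000129) and GUSB at -1.61 (0.000259). CDA stood at -1.49 (0.000202), GGT5 at -1.43 (0.00119), ASAP3 at -1.25 (0.0318), RPH3AL at -1.23 (0.00426), DUSP6 at -1.16 (0.00751) and TIMP3 at -1.15 (0.00235).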

How the results depend on the processing

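Of 303 named genes, 195 kept their direction and their call in every one of the 21 settings that gave them a value, 104 lost the call in at least 1, and 6 reversed, all when only plain _at probe sets were kept: SERPINA1 to 0.18, TPM1 to -0.05, EGFR to -0.04, CASP4 to -0.17, LMNA to 0.23 and AKR1C1 to 0.01. That setting called 1433 genes, 759 higher and 674 lower, with 6 gained, 8 lost, 25 at high level and 48 different from the paclitaxel-resistant line. Without both arrays of extreme median the counts were 1338 called, 715 higher, 623 lower and 61 different from the paclitaxel-resistant line. Without normalization between arrays 731 genes were lower and 65 different from the paclitaxel-resistant line, and the median difference of all genes was 0.0366 against -0.051. A filter at the median level left 9 lost genes, and a level of 2000 left 15 at high level. Which genes counted as gained or lost depended on the limits. Limits at 2 times those used gave 5 gained genes, 4 of them among the 10 named. They gave 14 lost genes, 9 of them among the 16 named. Lower limits of 16 and 64 gave 10 gained genes, of which 4 were among those named, and 14 lost, of which 7 were. The 106 genes different from the paclitaxel-resistant line became 41 with a pseudocount of 1, 169 with 64, and 290 with the main axis of variation within groups as a covariate. That axis came from these same data and held 43.4% of the variance within groups. It leaves the differences unchanged and lowers the spread, so that setting cannot show whether calls are stable. With the replicate number as a block they were 67, and 2291 genes were called, 1206 higher and 1085 lower; same-numbered arrays correlated at -0.452 to 0.337 in their deviations, so the numbers were not taken as pairs. Leaving out 1 array gave 1643 to 2584 called, 889 to 1368 higher, 754 to 1216 lower, 10 to 13 gained, 16 to 18 lost, 51 to 76 at high level and 41 to 108 different from the paclitaxel-resistant line. The cause of these shifts was not tested. Signal near that of tissue-limited genes limits what can be said of genes under 32.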
